A study of Mus musculus with 4 samples.

Results

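The genes described here encode 6 secreted proteins of the vessel wall matrix: tenascin C (Tnc), tenascin XB (Tnxb), fibronectin (Fn1), periostin (Postn), osteonectin (Sparc) and the SPARC-like protein hevin (Sparcl1). They were taken by name, as 6 of the 18113 genes that the 3 count files share, and all 6 were found in each file. Each was followed in smooth muscle cells, defined as cells with at least 5 UMIs (unique molecular identifiers, 1 per captured transcript) of the smooth muscle myosin gene Myh11 and 0 of Pdgfra. The same was done in fibroblasts, defined by at least 1 UMI of the receptor gene Pdgfra and at most 2 of Myh11.

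The study profiled single cells of the aorta of male Mef2c-mTmG mice by 10x 3′ sequencing; its design text names the ascending aorta and asks how cells of the second heart field and of other origins respond to angiotensin II (AngII). The SHF baseline library holds cells sorted on the second heart field label from uninfused mice, and the SHF AngII library holds such cells after 3 days of AngII infusion. The CNC AngII library holds the cells labelled CNC after the same 3 days, and CNC cells at baseline were not analysed here. All groups carried the same reporter strain, in which Cre recombinase switches the membrane colour of a cell and its descendants. Second heart field origin was thus read from a lineage label and not from current expression. What CNC stands for is not given in the labels, and CNC is used below as the name of a library. Age, AngII dose and how many animals went into a library are not given in the sources used here. A single library stands for each group, which leaves every difference without a replicate check or a p-value. The 95% intervals cover counting error only.

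Matricellular proteins sit in the extracellular matrix and change how cells attach to it, more than they bear load themselves. Fibronectin is the scaffold on which collagen and other fibrils are assembled and is bound by integrins, chiefly the one formed by the Itga5 and Itgb1 products. Tenascin C and periostin are known for their return in injured or remodelling arteries, tenascin XB for organising collagen fibrils, and SPARC and hevin for binding collagen.

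The libraries held 92474476 to 150954701 UMIs, and 8374 to 10194 cells passed the filters. In the order SHF baseline, SHF AngII, CNC AngII, which all runs of 3 values below follow, smooth muscle cells numbered 2259, 4649 and 6385 and fibroblasts 3939, 2640 and 842. Fibroblasts made up 47.0%, 28.4% and 8.26% of kept cells. Median UMIs per cell were 12441, 13336 and 13450 in smooth muscle cells and 9534, 15485.5 and 12379.5 in fibroblasts. The classes matched their names: the summed level of 8 smooth muscle markers other than Myh11 was 60037 to 69339 CPM (UMIs of a gene per 1000000 UMIs of the class) in smooth muscle cells and 1504 to 4423 CPM in fibroblasts, while 8 fibroblast markers summed to 19404 to 43645 CPM in fibroblasts and 3252 to 3990 CPM in smooth muscle cells. Between 341 and 435 kept cells per library met both the Myh11 minimum and the Pdgfra minimum and were in neither class. Of the kept cells, 0.26 to 0.35% shared a barcode with a cell of another library. The SHF baseline file lists 18760 genes and the AngII files 32285, so the baseline contrast also crosses 2 gene lists, and treatment and file cannot be told apart.

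In SHF smooth muscle cells, Tnc, Postn and Fn1 were higher after AngII, Tnxb and Sparcl1 were lower, and Sparc was within 1.5-fold. The same 3 genes were higher and the same pair lower in SHF fibroblasts. Thus 5 of the 6 were past 1.5-fold in each class, against 24.4% of 7001 genes in smooth muscle cells (8.76% higher, 15.6% lower) and 38.1% of 7694 genes in fibroblasts (10.5% higher, 27.6% lower). The median log2 ratio of the 6 was 0.58 in smooth muscle cells and 0.40 in fibroblasts, beside -0.10 and -0.21 over all genes tested. All 6 reached the minimum mean of 10 CPM set for that background in smooth muscle cells, and 5 did in fibroblasts, where Tnc did not. Another scaling (TMM) moved the median of all genes by 0.19 in smooth muscle cells and 0.27 in fibroblasts, and every member's ratio between these libraries with it.

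**Figure D1:**
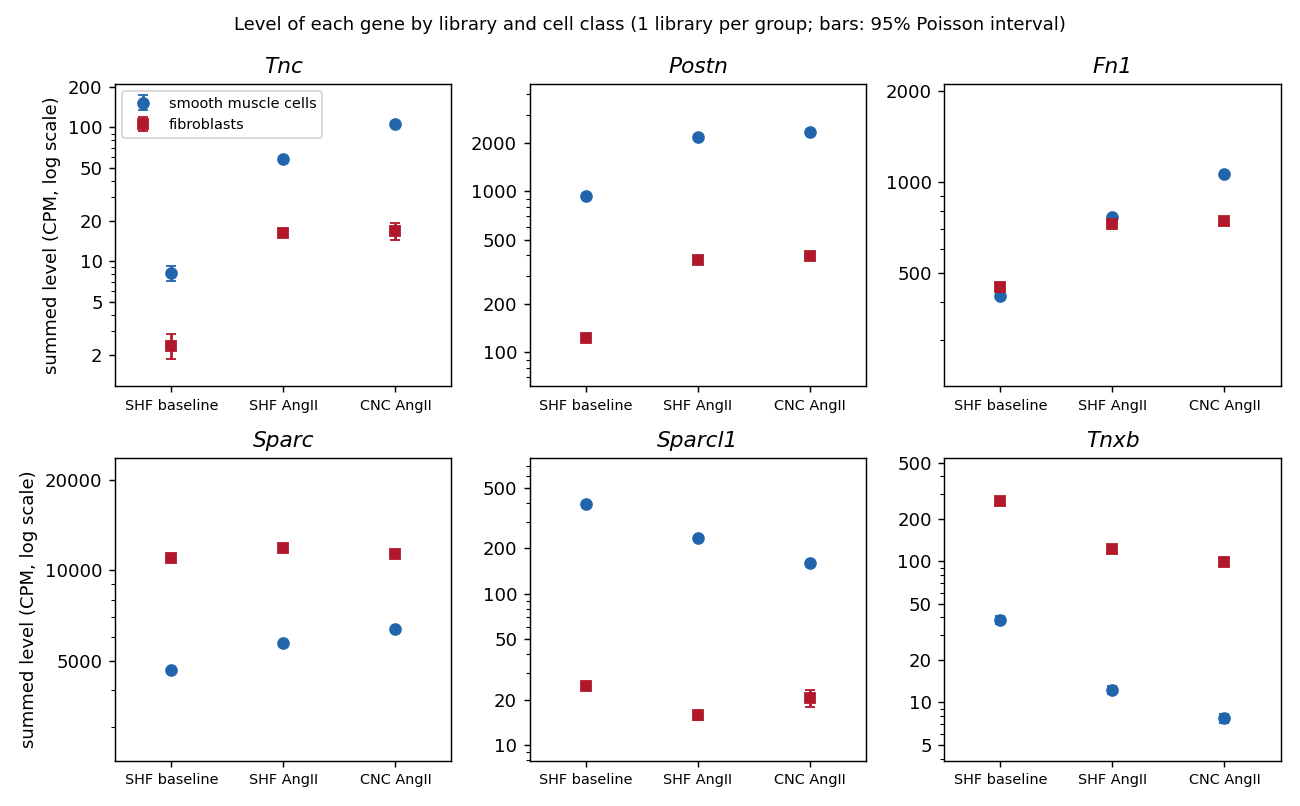
Summed level of each gene in CPM (y axis, log scale, a different range in each panel) in the 3 libraries (x axis), with blue circles for smooth muscle cells, red squares for fibroblasts and bars for the 95% Poisson interval of the count. Tnc, Postn and Sparcl1 lie higher in smooth muscle cells and Tnxb and Sparc higher in fibroblasts in each library, while the classes cross for Fn1.

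Tnc, which encodes a hexameric glycoprotein that is scarce in the resting adult artery, had the largest ratio of the 6 in both classes. Its level in smooth muscle cells was 8.16 CPM (241 UMIs), 58.3 CPM (4053 UMIs) and 106 CPM (10183 UMIs) in the 3 libraries. The log2 ratio of SHF AngII to SHF baseline was 2.84 (2.65 to 3.03), or 2.70 with the pseudocount of 1 CPM that all other log2 ratios carry. Fibroblasts held 2.32 CPM (88 UMIs), 16.2 CPM (728 UMIs) and 16.8 CPM (192 UMIs), with a log2 ratio of 2.80 (2.48 to 3.14), or 2.37 with the pseudocount. Smooth muscle markers in these fibroblasts summed to 1504, 4423 and 4329 CPM, and in fibroblasts with no UMI of 4 of those markers (Cnn1, Lmod1, Smtn and Des), a subset drawn after seeing the data, the ratio with the pseudocount was 1.11 (1.77 and 4.95 CPM). The baseline value over all fibroblasts also rests on few transcripts, and 14 of its 88 UMIs came from a single cell. In the orders of the 6 levels of each gene, the only neighbours with overlapping intervals were SHF AngII and CNC AngII fibroblasts, for Tnc and for Fn1.

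Over single cells, Tnc was sparse in every library. After every cell was thinned to 5000 UMIs, so that 1 UMI equals 200 CPM, 2.94% (2.27 to 3.73), 17.8% (16.7 to 18.9) and 33.5% (32.3 to 34.7) of smooth muscle cells had a Tnc UMI. Cells with any Tnc held on average 1.22, 1.32 and 1.41 UMIs. With a mean of 0.036, 0.234 and 0.472 UMIs per cell at this depth, more cells with Tnc and more Tnc per cell cannot be told apart. Without thinning the shares were 7.66%, 36.4% and 59.5%. The thinning left out 45, 59 and 82 shallower smooth muscle cells. In fibroblasts the thinned shares were 0.776%, 3.31% and 4.42%, with 717, 136 and 73 cells left out. Macrophages of the CNC AngII library (1441 cells, median 11522 UMIs), in which free RNA would also be counted, had a Tnc UMI in 1.36% of cells, below both classes of that library. The SHF libraries had too few macrophages (7 and 14) for such a value.

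**Figure D2:**
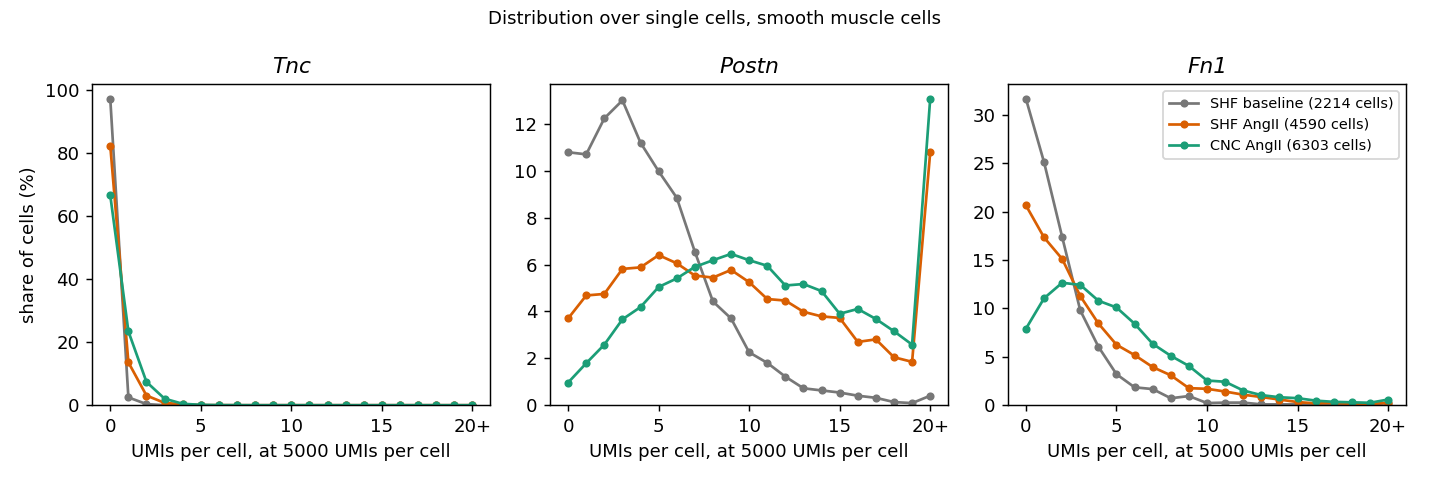
Share of smooth muscle cells in percent (y axis) by UMIs per cell of Tnc, Postn and Fn1 after thinning to 5000 UMIs (x axis, last point 20 or more), with 1 line per library. Most smooth muscle cells have 0 UMIs of Tnc in each library, and the median of Postn is 4 UMIs at baseline and 9 (SHF) and 11 (CNC) after AngII.

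Postn encodes periostin, a fasciclin-domain protein that binds integrins and helps collagen cross-linking. Smooth muscle cells held 931, 2180 and 2335 CPM of it, a log2 ratio of 1.23 between the SHF libraries, or 1.88 with a cell filter of at most 5% mitochondrial UMIs and at least 1000 genes. Of the smooth muscle cells with 5000 UMIs or more, that filter kept 112 of 2214 in SHF baseline and 1586 of 4590 in SHF AngII. Fibroblasts held 123, 374 and 398 CPM, a log2 ratio of 1.60. The patterns over cells were unlike in the 2 classes. Postn was found in most smooth muscle cells already at baseline, and the whole distribution lay higher after AngII: the 10th, 50th and 90th percentiles were 0, 4 and 9 UMIs at SHF baseline, 2, 9 and 20 under SHF AngII, and 4, 11 and 21 under CNC AngII. The thinned share with a UMI was 89.2% at baseline and 96.3% or more in the AngII libraries. With the stricter filter, SHF baseline had a share of 58.9% and percentiles of 0, 1 and 7 UMIs. SHF AngII then had 95.6% and 2, 9 and 20 UMIs, and CNC AngII 98.7% and 3, 10 and 20 UMIs. Under the main filter, fibroblasts with a UMI made up 17.1%, 35.6% and 46.7%, and those cells held 3.34, 3.95 and 3.41 UMIs. The tenth of fibroblasts with most Postn held 87.6%, 68.1% and 56.8% of its UMIs. CNC AngII macrophages had a Postn UMI in 18.3% of cells and a level of 40.9 CPM, beside 46.7% and 398 CPM in the fibroblasts of that library. How much of either is free RNA was not tested.

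Both Tnc and Postn have a RefSeq start site with a TATATAA motif close upstream, and these windows are shown because the genes had the largest positive ratios. Each line gives the 250 bases before that start on the gene's own strand, 5′ to 3′, in GRCm38.p6, with the motif in capitals.
Tnc, chr4:64046937-64047186, minus strand: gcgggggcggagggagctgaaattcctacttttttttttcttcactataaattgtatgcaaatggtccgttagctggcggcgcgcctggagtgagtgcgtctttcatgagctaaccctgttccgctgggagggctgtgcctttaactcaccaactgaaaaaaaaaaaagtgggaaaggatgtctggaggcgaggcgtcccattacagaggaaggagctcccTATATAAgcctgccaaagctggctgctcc
Postn, chr3:54360857-54361106, plus strand: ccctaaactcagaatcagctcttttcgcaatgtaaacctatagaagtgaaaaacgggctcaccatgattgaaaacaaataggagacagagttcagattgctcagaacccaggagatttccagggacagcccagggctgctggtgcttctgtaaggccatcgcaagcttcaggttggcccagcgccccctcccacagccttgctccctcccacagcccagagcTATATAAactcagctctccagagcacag
Between the motif and the start lie 22 bases in Tnc and 21 in Postn. TATATAA, searched on both strands, is in 3.04% of 32851 such windows, and in the Postn window it overlaps a TATAAA, which is in 12.4%. RefSeq windows were matched for 4 of the 6 genes (not Fn1 and Sparcl1). Their 6 windows were also searched for the AP-1 site TGAGTCA (4.46% of all windows), found in Tnxb, the GC box GGGCGG (32.7%), found in both Tnc windows, and the CArG box (1.47%), not found. A match describes the letters only. The Tnc gene spans chr4:63959785-64047015 and Postn spans chr3:54361109-54391037 in the GENCODE annotation of GRCm38.

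Fn1 was the member with the least difference between classes. Smooth muscle cells held 421, 767 and 1060 CPM, and fibroblasts 448, 728 and 742 CPM. The log2 ratio of SHF AngII to SHF baseline was 0.87 in smooth muscle cells and 0.70 in fibroblasts, where drawing the classes at equal depth left 0.45, inside 1.5-fold. The share of smooth muscle cells with a UMI at equal depth was 68.3%, 79.3% and 92.1%, and the median was 1, 2 and 4 UMIs. Fibroblasts differed chiefly in the share, which was 45.1%, 72.4% and 71.9%, while those with any Fn1 held 4.60, 4.19 and 4.60 UMIs. Macrophages of CNC AngII had an Fn1 UMI in 29.8% of cells (185 CPM). Fn1 lies at chr1:71585520-71653200 on the minus strand.

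Tnxb, at chr17:34670535-34719815, went the other way from Tnc. Fibroblasts held 270, 123 and 99.3 CPM, a log2 ratio of -1.13 between the SHF libraries (-1.18 to -1.09). Smooth muscle cells held 38.4, 12.2 and 7.71 CPM, a log2 ratio of -1.58. At equal depth 52.1%, 35.3% and 29.4% of fibroblasts had a Tnxb UMI, and those that did held 2.57, 2.14 and 2.13. The shares of smooth muscle cells were 16.1%, 5.73% and 3.87%, against 0.286% in CNC AngII macrophages. The fibroblast share of the library and some fibroblast markers in smooth muscle cells moved alongside, Dcn being 311, 174 and 20.3 CPM, Lum 85.1, 75.3 and 8.83 CPM, Dpt 15.5, 10.7 and 2.76 CPM and Pi16 18.3, 11.9 and 5.34 CPM. The sum of all 8 fibroblast markers in these cells went the other way, at 3252, 3807 and 3990 CPM, with Col1a2 at 1504, 1897 and 2201 CPM. Of the 8 markers 7, 8 and 4 were at 10 CPM or more and none was at 0. Taken over the 893 and 2457 smooth muscle cells with no UMI of Dcn, Lum, Dpt or Pi16, the SHF AngII to SHF baseline log2 ratio of Tnxb was -2.01.

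**Figure D3:**
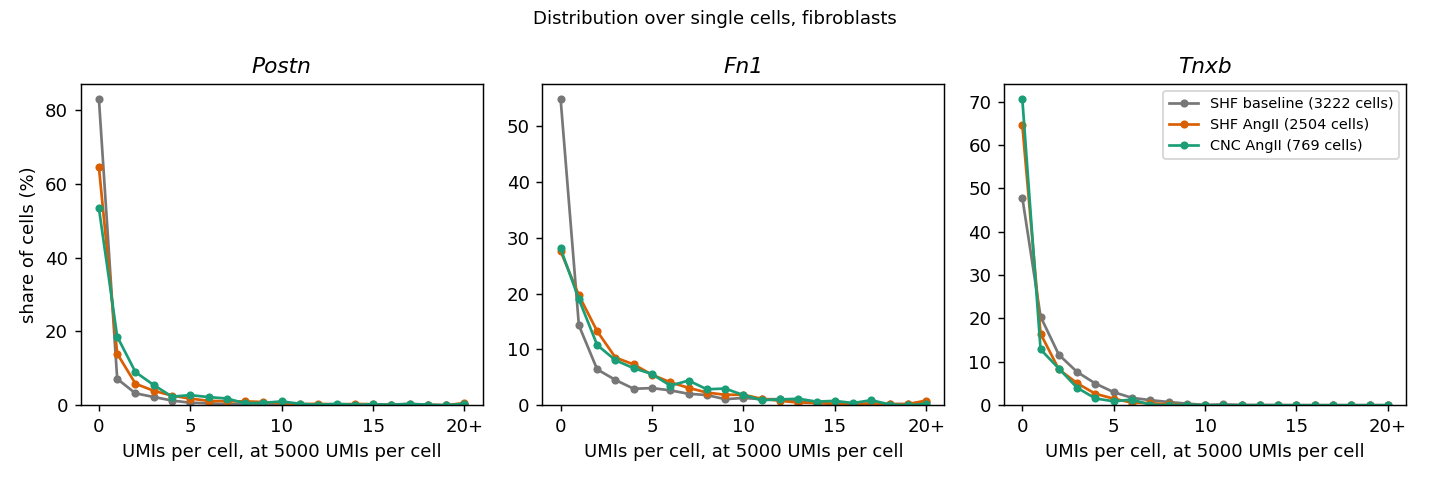
Share of fibroblasts in percent (y axis) by UMIs per cell of Postn, Fn1 and Tnxb after thinning to 5000 UMIs (x axis, last point 20 or more), with 1 line per library. The share at 0 is highest in SHF baseline for Postn and Fn1 and lowest there for Tnxb.

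Sparc, the collagen-binding osteonectin at chr11:55394500-55423183, differed least of the 6 between the SHF libraries in both classes. Its levels were 4643, 5713 and 6361 CPM in smooth muscle cells and 11035, 11839 and 11357 CPM in fibroblasts, and the SHF AngII to SHF baseline log2 ratios were 0.30 and 0.10. The fibroblast value took the opposite sign, -0.03, when the classes were drawn after thinning to equal depth. Its spread over fibroblasts differed where its mean did not. At equal depth the mean was 55.2, 57.5 and 55.9 UMIs, but the 10th percentile was 15, 26 and 22, the 90th was 104, 91 and 91, and the variance over the mean was 23.8, 10.7 and 12.4. SHF baseline fibroblasts thus included more cells with little Sparc and more with much. Over smooth muscle cells the variance over the mean was 7.94, 7.55 and 5.73.

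Sparcl1, at chr5:104079111-104113733, encodes hevin, a close relative of SPARC that took the opposite class. It was 396, 235 and 160 CPM in smooth muscle cells and 24.7, 15.7 and 20.3 CPM in fibroblasts. SHF AngII to SHF baseline log2 ratios were -0.75 and -0.62. Shares of smooth muscle cells with a UMI at equal depth were 62.6%, 55.1% and 45.6%, and positive cells held 3.19, 2.54 and 2.09 UMIs. Under the main filter, both the share and the level within positive cells were thus lower in the AngII libraries. With the stricter cell filter (112, 1586 and 2788 cells), the shares were 39.3%, 42.1% and 36.1%. The share was then not lower in SHF AngII than in SHF baseline. Positive cells still held fewer UMIs in the AngII libraries, at 2.93, 2.11 and 1.84. Both 1.5-fold calls between the SHF libraries were sensitive to the processing. Drawing the classes at equal depth left the smooth muscle ratio at -0.43, inside 1.5-fold, and TMM scaling left the fibroblast ratio at -0.35.

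**Figure D4:**
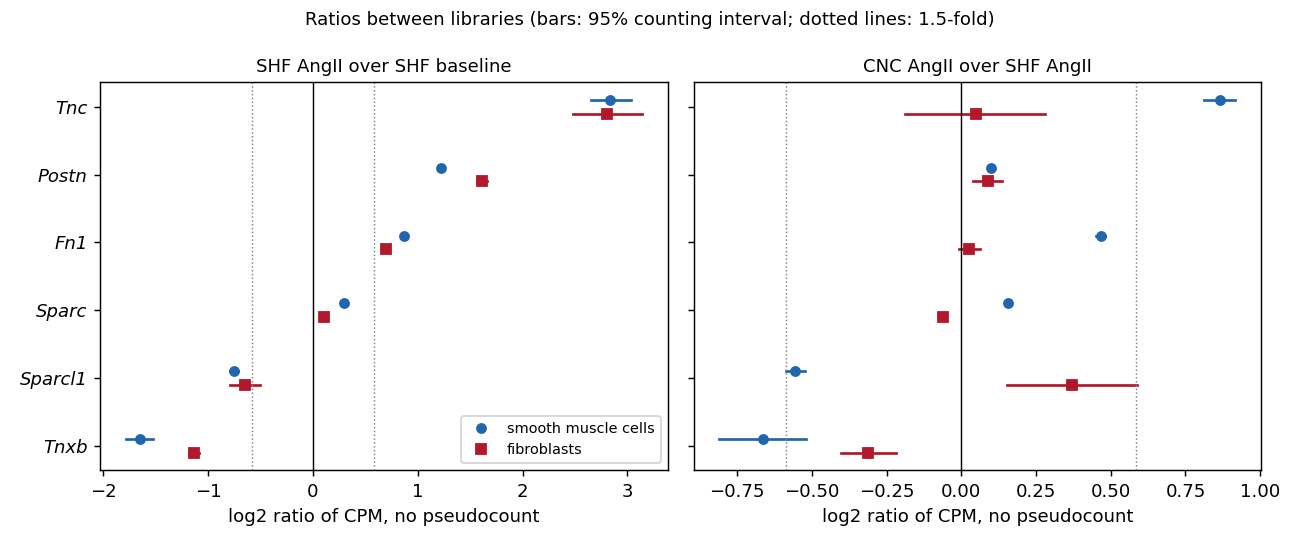
Log2 ratio of CPM without a pseudocount (x axis) for each gene (y axis), SHF AngII over SHF baseline on the left and CNC AngII over SHF AngII on the right, with blue circles for smooth muscle cells, red squares for fibroblasts, bars for the 95% counting interval and dotted lines at 1.5-fold. The x axes differ: values run from below -1.5 to above 2.5 on the left, and all lie between -1 and 1 on the right.

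Between the CNC and SHF libraries under AngII the genes differed much less. Smooth muscle cells of CNC AngII held more Tnc, by a log2 ratio of 0.85, and less Tnxb, at -0.60. These 2 of 6 were past 1.5-fold, against 1.94% of 6766 genes (0.946% higher, 0.99% lower), and Tnxb, at 12.2 and 7.71 CPM, fell short of the 10 CPM minimum of that background. Fn1 (0.47), Sparc (0.15) and Postn (0.10) were higher in CNC AngII within 1.5-fold, and Sparcl1 was lower (-0.55). The median of the 6 was 0.13 and that of all genes 0.00. In fibroblasts none of the 6 was past 1.5-fold, against 2.31% of 7216 genes (1.25% higher, 1.07% lower): Sparcl1 had 0.35, Tnxb -0.31, Postn 0.09, Sparc -0.06, Tnc 0.05 and Fn1 0.03. The interval for Tnc in fibroblasts, without a pseudocount, ran from -0.19 to 0.28. In the fibroblasts without smooth muscle marker UMIs described below, 961 and 337 cells, Tnc had 1.04 and Sparcl1 1.22. The Tnxb call in smooth muscle cells was kept in 5 of 11 alternatives and that of Tnc in 11 of 11. The sum of 8 macrophage markers was 319 CPM in CNC AngII smooth muscle cells (5 of the 8 at 10 CPM or more) and 1.38 CPM in SHF AngII ones (0 of 8, with Ptprc and Adgre1 at 0). Leaving out cells with a UMI of Ptprc, Pecam1 or Cdh5 kept Tnc and not Tnxb past 1.5-fold.

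Within each library, the classes divided the genes the same way. Tnc, Postn and Sparcl1 were past 1.5-fold in favour of smooth muscle cells and Tnxb and Sparc in favour of fibroblasts, 5 of 6. Over all genes the share was 36.6% of 7735 at SHF baseline (12.0% higher, 24.6% lower), 37.9% of 7192 under SHF AngII (15.3% and 22.6%) and 36.6% of 7247 under CNC AngII (14.9% and 21.7%). The log2 ratio of smooth muscle cells to fibroblasts was 2.91, 2.54 and 2.55 for Postn and 3.95, 3.82 and 2.91 for Sparcl1. For Tnc it was 1.46, 1.79 and 2.59. It was -2.78, -3.23 and -3.53 for Tnxb and -1.25, -1.05 and -0.84 for Sparc. Fn1 stood at -0.09, 0.08 and 0.51, and TMM scaling turned its baseline value to 0.19.

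Smooth muscle transcripts in fibroblasts moved with AngII too. The sum of the 8 smooth muscle markers in fibroblasts was 1504, 4423 and 4329 CPM, with 6, 7 and 7 of them at 10 CPM or more, none at 0, and Acta2 at 584, 1987 and 1984 CPM. In the subset of fibroblasts with no UMI of Cnn1, Lmod1, Smtn or Des (2105, 961 and 337 cells), the SHF AngII to SHF baseline log2 ratio was 1.16 for Postn, 1.11 for Tnc, -0.75 for Tnxb and 0.28 for Fn1. Fn1 was thus within 1.5-fold there, and Tnc stood at 1.77, 4.95 and 11.2 CPM. The subset also held fewer smooth muscle marker UMIs (715, 2344 and 2103 CPM) without reaching 0. With smooth muscle cells likewise limited to those without UMIs of 4 fibroblast markers, the log2 ratio of smooth muscle cells to fibroblasts was 2.003, 3.43 and 3.15 for Tnc. It was -3.16, -4.42 and -4.55 for Tnxb and 3.80, 3.67 and 1.75 for Sparcl1. Postn (2.83, 2.89 and 2.84) and Sparc (-1.20, -1.09 and -0.73) kept their side as well, and Fn1 stood at -0.44, 0.20 and 0.72, past 1.5-fold in CNC AngII.

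Fibroblasts of the perivascular and adventitial layer are often split by Pi16, a marker of an adventitial state, and Cthrc1, a collagen-linked gene of activated fibroblasts. Fibroblasts with a Cthrc1 UMI were 12.1%, 62.3% and 55.8% of the class (476, 1646 and 470 cells). Postn was 216 CPM in SHF baseline fibroblasts with Cthrc1 and 105 CPM in those without, 483 against 59.3 CPM in SHF AngII, and 504 against 177 CPM in CNC AngII. Fn1 was 1012 against 343 CPM, 857 against 354 CPM and 916 against 381 CPM. The Fn1 levels within each Cthrc1 set therefore differed less between the SHF libraries than the level of the class did, and the set with Cthrc1 was lower after AngII. Tnc in fibroblasts with Cthrc1 was 6.36, 19.2 and 21.3 CPM, and 1.57, 7.56 and 7.26 CPM in those without. A set drawn on 1 UMI also depends on depth.

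Pi16 divided Postn in opposite directions before and after infusion. In SHF baseline, fibroblasts without a Pi16 UMI (550 cells) held 337 CPM of Postn (321 to 353) and those with Pi16 (3389 cells) 89.6 CPM (86.4 to 92.9). In SHF AngII those without Pi16 (265 cells) held 269 CPM (253 to 287) and those with Pi16 383 CPM (377 to 389). Postn was thus higher after AngII in SHF fibroblasts with Pi16 and lower in those without, and most of the class had a Pi16 UMI in both libraries (86.0% and 89.96%). Tnxb was higher with Pi16 in each library, at 294 against 113 CPM, 128 against 65.0 CPM and 107 against 44.6 CPM. Tnc was lower with Pi16, at 1.71 against 6.31 CPM, 14.8 against 32.7 CPM and 15.9 against 23.0 CPM. In CNC AngII the intervals overlapped (13.5 to 18.5 and 15.8 to 32.3 CPM), with 33 UMIs in the 127 cells without Pi16. Fibroblasts with a UMI of the cartilage-linked genes Comp or Chad held more Postn in each library, 204, 556 and 458 CPM against 111, 301 and 358 CPM.

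**Figure D5:**
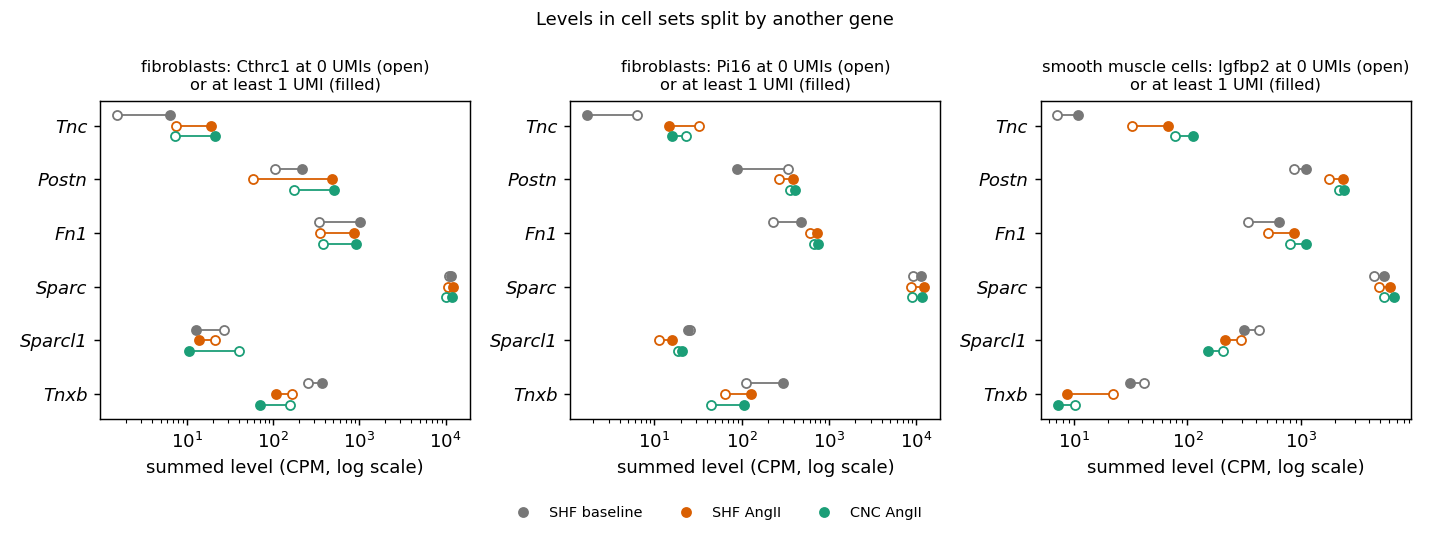
Summed level in CPM (x axis, log scale) of each gene (y axis) in cells without (open) and with (filled) a UMI of Cthrc1 (fibroblasts, left), Pi16 (fibroblasts, middle) and Igfbp2 (smooth muscle cells, right), coloured by library. Postn lies to the left in SHF baseline fibroblasts with Pi16, at 89.6 CPM, and to the right in the AngII fibroblasts with Pi16.

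Smooth muscle cells with a UMI of the growth factor binding protein gene Igfbp2 (536, 3136 and 5174 cells) held more Tnc, Fn1 and Postn and less Sparcl1 and Tnxb in each library. Tnc was 10.8 against 7.16 CPM, 67.6 against 32.5 CPM and 111 against 77.7 CPM. Fn1 was 638 against 340 CPM, 859 against 512 CPM and 1109 against 795 CPM. Cells with at least 5 UMIs of the osteopontin gene Spp1 (156 in SHF AngII and 537 in CNC AngII) held 1397 and 1333 CPM of Fn1, against 730 and 1021 CPM in the rest, and 105 and 93.0 CPM of Sparcl1, against 243 and 170 CPM. SHF baseline had 1 such cell. These sets also depend on depth. Median UMIs per cell were 23126 and 21274 in the Spp1 sets, against 13104 and 12918.5 in the rest. With and without Igfbp2 the medians were 14501.5 against 11965, 14707.5 against 10419 and 14051.5 against 10674. Cells with a UMI of the troponin gene Tnnt2 held 7.65 CPM of Tnc against 9.42 CPM in those without in SHF baseline, with overlapping intervals, 44.8 against 75.8 CPM in SHF AngII and 94.8 against 110 CPM in CNC AngII. Fn1 was lower with Tnnt2 in the SHF libraries (373 against 543 CPM and 686 against 873 CPM) and slightly higher in CNC AngII (1083 against 1053 CPM).

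Some pairs of the genes had unlike correlations over single cells in the 3 libraries, and the other pairs are not given. Correlations below are Pearson r of log counts thinned to 5000 UMIs, over the cells of 1 class in 1 library, and describe those cells, which share a library. In fibroblasts Tnxb and Fn1 had r of 0.45 (3222 cells), 0.10 (2504 cells) and 0.02 (769 cells). Fn1 was found in 58.5% of baseline fibroblasts with Tnxb and 30.6% of those without, but in 76.8% and 70.0% in SHF AngII. Tnxb itself was found in 52.1%, 35.3% and 29.4% of these fibroblasts, and the effect of that on r was not tested. The r of Fn1 and Postn in fibroblasts was 0.16, 0.43 and 0.36. Over smooth muscle cells Postn and Sparc had r of 0.14, 0.48 and 0.43. With the filter of at most 5% mitochondrial UMIs and at least 1000 genes, which kept 112 SHF baseline cells, r was 0.20, 0.35 and 0.39.

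Genes with a pattern like that of a member were then ranked. Over the 6 profiles (2 classes by 3 libraries), among 2561 genes, the closest to Fn1 was the elastin gene Eln, with a root mean square difference of 0.08 on the centred log2 scale, and the closest to Tnxb were the complement genes C1ra (0.27) and C1s1 (0.31). Postn lay closest to Glipr1 (0.18), Hspb7 (0.18) and the fibronectin receptor gene Itga5 (0.19), and Sparcl1 to Plcb4 (0.26), Dstn (0.30) and Slmap (0.35). For Tnc the closest, Dbndd2 and Itga1, were further off, at 0.57, with r of 0.94 and 0.95 over the 6 profiles. The genes ranked all had a mean of at least 50 CPM, so sparser genes were not compared. Over cells, partners were picked by the highest r in SHF AngII, so r in that library is high by selection. Sparc went with Eln in smooth muscle cells (r of 0.50, 0.66 and 0.53) and with the collagen gene Col1a1 in fibroblasts (0.68, 0.58 and 0.60). In fibroblasts Tnxb went with Clec3b (0.52, 0.61 and 0.69). Postn was paired with Cthrc1 (0.09, 0.55 and 0.38), itself found in 12.1%, 62.3% and 55.8% of fibroblasts. Whether that share set the difference in r was not tested.

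Relatives and receptors were read from a list of 24 genes. Of the 13 tested in smooth muscle cells, 3 were past 1.5-fold higher after AngII in the SHF libraries and 0 lower, with a median of -0.03, beside 8.76% of all genes higher and 15.6% lower. These were Smoc2, a SPARC relative (log2 ratio 1.88, 7.61 to 30.7 CPM), Itga5 (1.22, 111 to 260 CPM) and Bmp1, a protease that processes procollagen (0.82, 22.4 to 40.3 CPM). In fibroblasts 2 of 15 were higher, Itga5 (1.27) and the syndecan gene Sdc4 (0.74), and 5 were lower: the periostin relative Tgfbi (-1.74), the collagen receptor gene Ddr2 (-1.45), Spock2 (-1.24), Smoc1 (-0.76) and Itga8 (-0.62), with a median of -0.27. Over all genes 10.5% were higher and 27.6% lower in fibroblasts, so the counts of the list lie near those shares. In fibroblasts Postn and its relative thus differed in opposite directions, Tgfbi standing at 239 CPM in SHF baseline and 70.7 CPM in SHF AngII. In smooth muscle cells Tgfbi was higher after AngII, as Postn was, at 1.25 and 3.64 CPM, below the minimum of 10 CPM. Between CNC AngII and SHF AngII, Smoc2 alone of 13 was past 1.5-fold in smooth muscle cells (higher in CNC AngII), beside 1.94% of all genes. Smoc2 (-0.97) and Tgfbi (-0.60) of 14 were lower in CNC AngII fibroblasts, where 2.31% of all genes were past 1.5-fold and 1.07% lower. The fibronectin receptor genes Itga5 and Itgb1 were higher in smooth muscle cells than in fibroblasts in each library, by at least 2.31 and 1.77 on the log2 scale.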

How the data were processed

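Cells were captured with the 10x Chromium 3′ v3 chemistry after sorting of live singlets by lineage label, per the labels' protocols. The authors deposited 1 table of raw UMI counts per library, genes by cell barcodes, with no cell annotation. The submitters' processing notes name the mm10 build, fastp, STAR 2.5 and HTSeq 0.6.1 without saying what each did; gene annotation and strand use in counting are not given in the sources used here. Exons of Tnc, Tnxb and Fn1 overlap an antisense gene (8030451A03Rik, Cyp21a2-ps and Apol7d), so their counts are uncertain to that extent. Genes were joined by symbol (17594) or synonym (519).

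Cells were kept with 500 genes or more and 10% mitochondrial UMIs or less, and 192 to 279 barcodes per library that Scrublet (scanpy 1.11.5) marked as doublets were removed. UMIs were summed per class and library and divided by the class total (CPM). A log2 ratio carries a pseudocount of 1 CPM, and 1.5-fold was used as the size of a difference; shares of all genes past it were taken over genes with a mean of at least 10 CPM. Intervals are 95%: Poisson for levels, conditional binomial for ratios, Clopper-Pearson for shares. The ratio and interval computations were tested on simulated counts. TMM factors came from edgeR 4.0.16.

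With 1 library per group, no test across samples was possible. Genes were named as the 6 members, the genes of the receptor list past 1.5-fold, and the 3 genes most alike to each member, of which some are given. The members and lists were chosen with earlier results of these data known. Alternatives covered the cell filter, doublets, the gates, thinning, totals, scaling, pseudocount, the mean over cells, other cell types and the fold.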

Additional observations from a re-analysis of the deposited data

Results flagged for a closer look

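Sparc and Sparcl1 were set aside because their CNC AngII to SHF AngII log2 ratios had opposite signs in the 2 classes. Sparc had 0.15 in smooth muscle cells and -0.060 in fibroblasts, and Sparcl1 -0.55 and 0.35. This difference was not tested, as each group has 1 library.

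Tnc and Postn were also above their baseline level in cells that no comparison used, the 2176 SHF baseline and 2010 SHF AngII cells outside both classes. Their SHF AngII to SHF baseline log2 ratios there were 1.42 for Tnc (from 8.74 CPM) and 0.74 for Postn (499 to 831 CPM). In these cells Fn1 had 0.57, Sparc 0.30, Tnxb -1.03 and Sparcl1 -0.98, so the difference was not particular to Tnc and Postn. These cells include 396 and 435 with transcripts of both class markers, and their part in the ratios was not tested.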

How the results depend on the processing

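Every result came from 1 library per group, so no library could be left out. No paired analysis was possible because the labels carry no replicate numbers. No called ratio changed sign in 462 recomputed member ratios; 186 moved by less than their counting interval and 276 by more. The count of members past 1.5-fold differed from the reported one in 32 of 84 recomputations, by over 1.5 times in 14 of them. Smaller changes for SHF AngII over SHF baseline took the count from 5 to 4 in 5 recomputations in smooth muscle cells and 6 in fibroblasts. For smooth muscle cells over fibroblasts they took it from 5 to 6 in 5 recomputations and to 4 in 1 in CNC AngII, and to 4 in 1 in SHF baseline. For SHF AngII over SHF baseline, raising the size to 2-fold left 3 of 5 in smooth muscle cells and 3 of 5 in fibroblasts, and the fibroblast count was also 3 with classes drawn at equal depth and with thinning to 2000 UMIs. For CNC AngII over SHF AngII in smooth muscle cells, the count of 2 was 1 with the stricter cell filter, the stricter gate, thinning to 2000 UMIs, a pseudocount of 10 CPM, or cells with Ptprc, Pecam1 or Cdh5 left out, and 0 at 2-fold. In fibroblasts the count of 0 was 1 with classes drawn at equal depth, the mean of per-cell shares, or thinning to 2000 UMIs. It was 2 in cells without UMIs of 4 markers of the other class, an alternative chosen after seeing the data. A further 3 of 14 recomputed shares of all genes past 1.5-fold moved by over 1.5 times. Of 216 recomputed shares of cells with a UMI, 116 counted as the same and 100 as moved. The cause of these movements was not tested. Depth limits Tnc in baseline fibroblasts (88 UMIs). In the 842 CNC AngII fibroblasts, the smallest class, Tnc (192 UMIs) and Sparcl1 (233 UMIs) rest on the fewest UMIs of the 6.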

Other observations

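Cells other than the 2 classes also carried some of these transcripts. Endothelial cells, defined by endothelial marker UMIs (49, 30 and 33 cells in SHF baseline, SHF AngII and CNC AngII), held 2707, 3582 and 3657 CPM of Sparc and 466, 821 and 470 CPM of Fn1. Their Postn was 14.0, 52.3 and 59.9 CPM. Tnc had 0 UMIs in 49 endothelial cells of SHF baseline, which allows a share of up to 6.12% of cells with a UMI, and 19 UMIs in 3 of 30 cells of SHF AngII. Smooth muscle markers in the endothelial cells summed to 1365, 3306 and 2367 CPM and fibroblast markers to 3723, 2534 and 1432 CPM. Endothelial markers summed to 4554, 3795 and 4168 CPM, and macrophage markers to 2376 CPM in CNC AngII. How much of the members' UMIs there came from other cells was not tested. The 1441 macrophages of CNC AngII held 185 CPM of Fn1 and 58.1 CPM of Sparc, but 2.40 CPM of Tnc, 2.06 CPM of Sparcl1 and 0.685 CPM of Tnxb.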
